A study of Homo sapiens with 3 samples.

Results

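The 35 genes described here encode enzymes and regulators of sterol and fatty acid synthesis, out of 50868 genes with counts in the deposited data. They are a chosen list and not every gene of these pathways. The rule takes them by gene symbol, from a list drawn up with earlier results of these data known, so the contrasts with all genes below are descriptions. They fall into a mevalonate and sterol arm of 19 genes, a fatty acid arm of 11 genes and 5 regulators of the SREBP transcription factors. All 35 were found once in each table, had at least 58 counts in every library and passed the filter on low counts. The cells are NCI-H23, a human lung adenocarcinoma line, from which mRNA sequencing libraries were made. There was 1 library of control cells and there were 2 in which USP16, the gene of a deubiquitinase that acts on histone H2A, was knocked down by siRNA. The comparison asks how transcript levels differ when USP16 is knocked down, in a single cell line and with a single control library. The labels do not say what the control cells received, whether libraries 1 and 2 carry different siRNAs or are 2 cultures of the same one, nor how long the cells were treated.

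Cells make cholesterol from acetyl-CoA through mevalonate, isoprenoid diphosphates, squalene and lanosterol, and they make fatty acids from the same precursor through malonyl-CoA. Many enzymes of both routes share a switch. SREBP proteins, encoded by SREBF1 and SREBF2, sit in the endoplasmic reticulum bound to SCAP, and when sterols are low SCAP escorts them to the Golgi, where proteases release the transcription factor domain. INSIG proteins hold SCAP back when sterols are high. SREBP-2 is known mainly for the sterol genes and SREBP-1 for the fatty acid genes, and INSIG1 and SREBF2 are themselves targets of the pathway.

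The libraries held 14007161 counts (control), 13956382 (knockdown library 1) and 15071179 (knockdown library 2). USP16 itself had 632 counts in the control, 109 in library 1 and 245 in library 2, which is 83.8% and 66.8% below the control after TMM scaling for library size and composition, so the residual level was 2.05-fold higher in library 2 (exact binomial 95% interval 1.63 to 2.59). Intervals in this text cover counting error only, and no p-value can be given for a single library. All 5 epithelial markers were present, with a summed counts-per-million (CPM) level of 403 in the control, 237 in library 1 and 361 in library 2. Most of that sum was KRT8 and KRT18, whereas EPCAM was above the control in both knockdown libraries, with 38, 161 and 232 counts. The lung markers SFTPB and SFTPC were at 0 in all libraries, NKX2-1 had 4 to 10 counts and NAPSA 9 to 20. Of the leukocyte markers PTPRC and CD3E had at most 1 count in any library and CD68 had 78, 144 and 130. The endothelial markers PECAM1, VWF and CDH5 had at most 1, 6 and 8 counts. Of the fibroblast markers COL1A1 had 700 to 918 counts, COL1A2 5 to 7 and DCN at most 2. Both the epithelial marker sum and the residual USP16 level were lower in library 1 than in library 2, and their part in the results below was not tested. In bulk libraries a lower level in every cell and a smaller share of cells with a high level cannot be told apart.

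Most of the synthesis genes lay below the control in knockdown library 1 and above it in knockdown library 2. In library 1, 28 of the 35 were below the control (49.8% of all genes), and in library 2, 28 were above it (49.7% of all genes). Between the knockdown libraries, 23 of the 35 (65.7%) were at least 1.5-fold higher in library 2 than in library 1, against 18% of all 17287 genes tested, and 0 were at least 1.5-fold lower, against 18.5% of all genes. The 1.5-fold limit is a size chosen for counting and not a test. The median difference, library 2 minus library 1, was 0.76 on the log2 scale over the 35 genes and 0.00 over all genes. The sterol arm had a median of 0.76, the fatty acid arm of 0.88 and the regulators of 0.24. These are differences between 2 libraries, and whether they belong to the siRNAs, the cultures or the depth of the knockdown cannot be told apart.

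**Figure D1:**
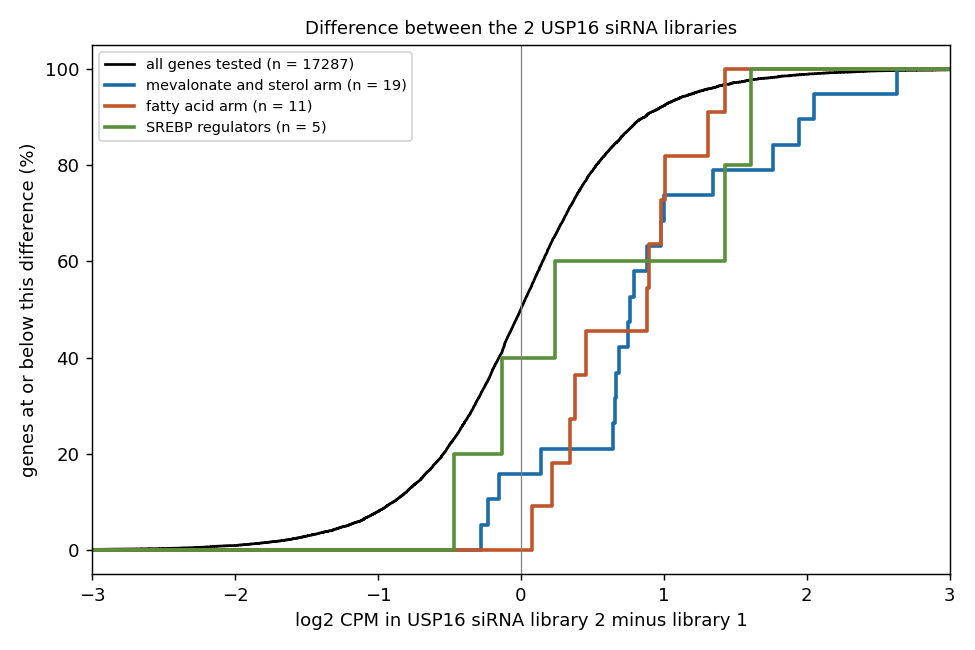
Cumulative share of genes (y axis, percent) at or below each log2 difference in CPM between USP16 siRNA library 2 and library 1 (x axis), for all 17287 genes tested and for the 3 gene groups. The curves of the sterol and fatty acid arms lie to the right of the curve of all genes, with medians of 0.76 and 0.88 against 0.00.

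By size of change against the control, 11 of the 35 genes (31.4%) lay 1.5-fold or more below it in library 1 and 4 (11.4%) lay as far above it, against 14.6% and 16.1% of all genes. In library 2, 11 of 35 (31.4%) lay 1.5-fold or more above the control and 1 (2.86%) as far below it, against 20.5% and 20% of all genes. With library totals in place of TMM factors, 17 members lay that far above it in library 2. The share over all genes was not counted with that scaling, where the median of all genes was 0.11 in library 2. Both comparisons use the same control library. The median change was -0.30 in library 1 and 0.46 in library 2, where the medians of all genes were 0.00 and 0.00. At a 2-fold limit, 11 genes were higher in library 2 than in library 1 (7.71% of all genes) and 0 lower (8.02% of all genes).

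**Figure D2:**
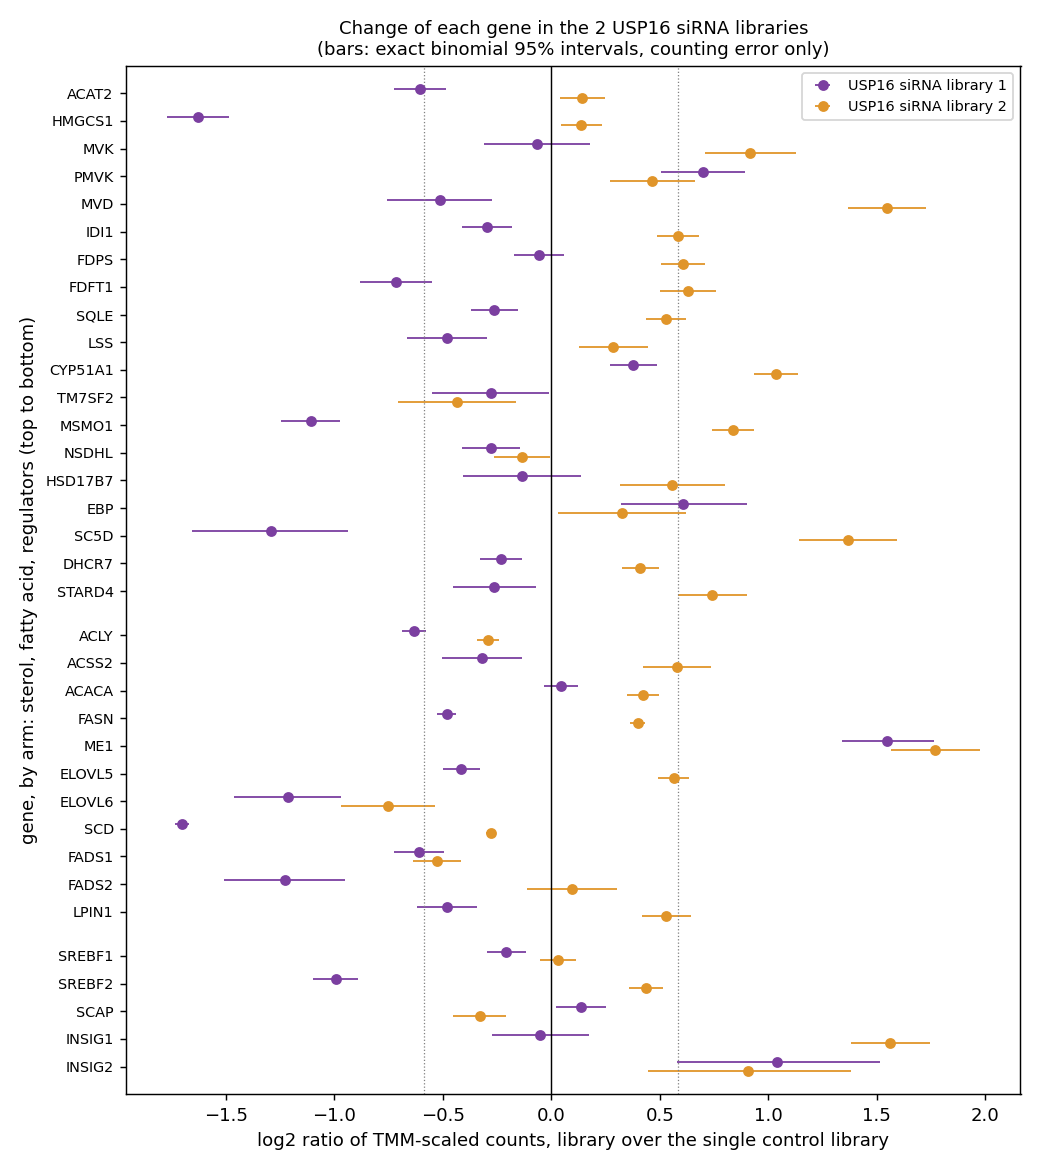
Log2 ratio of scaled counts of each of the 35 genes (y axis, grouped by arm) in USP16 siRNA libraries 1 and 2 over the control library (x axis). Bars are exact binomial 95% intervals for counting error, and dotted lines mark 1.5-fold. Points of library 2 lie to the right of those of library 1 for 30 of the 35 genes (85.7%), where 49.9% of all genes tested were higher in library 2.

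Promoter windows of RefSeq, from 250 bases before to 50 bases after an annotated start, were available for 31 of the 35 genes (44 windows, GRCh38.p14). They were searched on both strands for TCACNCCAC, a core of the sterol regulatory element that SREBP binds, and for CCAAT, the motif of NF-Y, a factor that often binds beside SREBP. Windows of 1 gene can overlap, and a gene with several starts has more chances of a match. TCACNCCAC was found in 1 of the 44 windows (2.27%), that of SREBF2, against 1.13% of all 35116 windows. CCAAT was found in 16 of 21 windows (76.2%) of the sterol arm, in 8 of 17 (47.1%) of the fatty acid arm and in 2 of 6 (33.3%) of the regulators, against 34.6% of all windows. A match describes the letters and shows no binding.

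The stretches below are those around the matches that lie before the RefSeq start of the window. Gene positions given elsewhere in this text come from another annotation, GENCODE, whose starts can differ. By those positions the SC5D stretch lies inside the gene, and the stretches of MSMO1, HMGCS1 and MVD lie partly inside. SREBF2 is shown because it holds the SRE match. SC5D, MVD, MSMO1, HMGCS1 and INSIG1 are shown because they were the members with the largest differences between the knockdown libraries. Capitals mark the motif matches, and ATTGG is CCAAT on the other strand. Each is written 5′ to 3′ on the strand of its gene. In SREBF2 (chr22:41832960-41833015, plus strand) the SRE match lies 18 bases before the CCAAT match, with no overlap. The others are SC5D (chr11:121292703-121292731, plus strand), MVD (chr16:88663160-88663262, minus strand), MSMO1 (chr4:165327472-165327651, plus strand), HMGCS1 (chr5:43313496-43313579, minus strand) and INSIG1 (chr7:155297696-155297724, plus strand).
SREBF2: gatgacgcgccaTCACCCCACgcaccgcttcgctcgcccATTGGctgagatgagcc
SC5D: cgccggtcgctgATTGGctggccgctcca
MVD: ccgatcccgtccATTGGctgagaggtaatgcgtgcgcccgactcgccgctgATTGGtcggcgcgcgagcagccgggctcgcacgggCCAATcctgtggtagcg
MSMO1: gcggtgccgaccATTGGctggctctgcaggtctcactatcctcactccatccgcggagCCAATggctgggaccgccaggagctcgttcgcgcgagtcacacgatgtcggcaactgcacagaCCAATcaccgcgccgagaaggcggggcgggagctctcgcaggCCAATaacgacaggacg
HMGCS1: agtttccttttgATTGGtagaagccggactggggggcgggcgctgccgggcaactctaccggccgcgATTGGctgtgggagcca
INSIG1: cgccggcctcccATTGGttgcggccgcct

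In the mevalonate and sterol arm, 15 of 19 genes (78.9%) were at least 1.5-fold higher in knockdown library 2 than in library 1. The share over all genes was 18%. HMGCS1, which makes HMG-CoA for the mevalonate pathway (chromosome 5, positions 43289395 to 43313512 of hg38), had 1587 counts in the control, 547 in library 1 and 2041 in library 2. Its level in library 1 was 3.09-fold lower than in the control (2.80 to 3.41), and in library 2 it was 1.10-fold higher (1.03 to 1.18). Only library 1 stood far from the other libraries for this gene. ACAT2, the cytosolic thiolase that joins 2 acetyl-CoA units, followed the same order with 1363, 954 and 1758 counts and was 1.68-fold higher in library 2 than in library 1 (1.55 to 1.82). ACAT2 shares 397 exonic bases with TCP1 on the opposite strand, which had 4950, 4209 and 7234 counts, and GENCODE 29 places 2 further genes, not used here, on that strand over 1141 and 1458 of its exonic bases.

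The middle enzymes of the mevalonate pathway were mostly high in library 2 alone. MVD, which forms isopentenyl diphosphate (chromosome 16, positions 88651935 to 88663161), had 335, 250 and 1142 counts in the control, library 1 and library 2, a 2.92-fold higher level in library 2 than in the control (2.58 to 3.31) and 4.16-fold higher than in library 1 (3.63 to 4.79). MVK, mevalonate kinase, had 276, 281 and 609 counts, so library 1 was level with the control (ratio 0.956, 0.807 to 1.13) and library 2 was 1.89-fold above it. MVK shares 306 exonic bases with MMAB on the opposite strand. PMVK, the kinase between these steps, did not follow: it had 347, 599 and 560 counts, above the control in both knockdown libraries and 0.852 times as high in library 2 as in library 1 (0.758 to 0.958). IDI1, the isomerase that makes dimethylallyl diphosphate, had 1351, 1171 and 2365 counts. FDPS, farnesyl diphosphate synthase, had 1240, 1269 and 2208.

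From squalene to lanosterol the libraries kept the order library 1, control, library 2. FDFT1, squalene synthase, had 759 counts in the control, 492 in library 1 and 1373 in library 2, a 2.54-fold difference between the knockdown libraries (2.29 to 2.82). SQLE, the squalene epoxidase, had 1496, 1328 and 2520 counts, and LSS, which closes the ring to lanosterol, had 560, 428 and 798. The differences between the knockdown libraries were 1.73-fold for SQLE and 1.70-fold for LSS.

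After lanosterol the enzymes divided. MSMO1, the sterol C4 methyl oxidase (chromosome 4, positions 165327623 to 165343160), had 1315, 649 and 2746 counts. It was 2.16-fold lower than the control in library 1 (1.96 to 2.37) and 1.79-fold higher in library 2 (1.67 to 1.91). SC5D, the sterol C5 desaturase (chromosome 11, positions 121292453 to 121308694), had 216, 94 and 650 counts, the widest gap of the 35 genes between the knockdown libraries at 6.30-fold (5.07 to 7.91). CYP51A1, the lanosterol demethylase, was above the control in both knockdown libraries with 1164, 1611 and 2786 counts, and library 2 was again the highest. GENCODE 29 places another protein-coding model, not used here, on the same strand over 2844 exonic bases of CYP51A1. DHCR7, the last reductase of one branch to cholesterol, had 1879, 1705 and 2918 counts, and HSD17B7, a 3-keto reductase with related pseudogenes, had 228, 221 and 392.

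NSDHL, EBP and TM7SF2 differed less. NSDHL, which works with MSMO1 in removing the C4 methyl groups, had 967, 849 and 1029 counts and was 1.10-fold higher in library 2 than in library 1 (1.01 to 1.21). EBP, the sterol isomerase, had 162, 263 and 237 counts, with both knockdown libraries above the control. TM7SF2, a sterol C14 reductase, had 245, 215 and 212 counts, so the knockdown libraries lay close together (ratio 0.899, 0.740 to 1.09). These 3 genes and PMVK were the 4 members of the arm under 1.5-fold between the knockdown libraries. STARD4, a carrier of sterol between membranes, was 2.01-fold higher in library 2 than in library 1 (1.79 to 2.25), with 482, 428 and 942 counts.

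The fatty acid arm was lower than the control in library 1 by a median of -0.48 (log2) and higher in library 2 by 0.40. All 11 genes had a higher value in library 2 than in library 1, where 49.9% of all genes did. For 6 of the 11 (54.5%) the gap reached 1.5-fold, against 18% of all genes. SCD, the desaturase that makes oleate and palmitoleate (chromosome 10, positions 100347124 to 100364834), was the most abundant of the 35 genes, with 32049 counts in the control, 10480 in library 1 and 30900 in library 2. In library 1 it was 3.26-fold lower than in the control (3.18 to 3.33), and in library 2 1.21-fold lower (1.19 to 1.23). The low value of library 1 stood apart from the other libraries. SCD alone took 2407 of the 4352 CPM of the arm in the control. Without it the summed level of the arm was 1945 in the control, 1443 in library 1 and 2315 in library 2.

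The enzymes that build the chain varied less than SCD. FASN, fatty acid synthase, had 10632, 8102 and 16366 counts, a 1.84-fold difference between the knockdown libraries (1.79 to 1.89) with the control between them. ACACA, which makes malonyl-CoA, had 2398, 2634 and 3756 counts, level with the control in library 1 (ratio 1.03, 0.976 to 1.09) and 1.34-fold above it in library 2. ACLY, which supplies acetyl-CoA from citrate, was below the control in both libraries, with 6307, 4333 and 6026 counts. ACSS2, which makes acetyl-CoA from acetate, had 531, 453 and 926 counts and was 1.86-fold higher in library 2 than in library 1.

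ME1 lay further above the control than any other gene of the arm in both knockdown libraries. This malic enzyme, which supplies NADPH (chromosome 6, positions 83210389 to 83431071), had 245 counts in the control, 763 in library 1 and 974 in library 2. Both knockdown libraries lay well above the control, 2.93-fold (2.53 to 3.39) and 3.40-fold (2.96 to 3.93), and close to each other. The mean log2 change was 1.65 ± 0.15 (SD, n = 2), an SD that leaves out the variation of the control.

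Among the elongases and desaturases, ELOVL6 and FADS1 were below the control in both libraries. ELOVL6, which extends palmitate, had 435, 200 and 302 counts, 2.32-fold and 1.68-fold below the control. FADS1, the delta-5 desaturase, had 1498, 1047 and 1215 counts, and its knockdown libraries hardly differed (ratio 1.06, 0.973 to 1.15). FADS2, the delta-6 desaturase, was low in library 1 alone, with 347, 158 and 433 counts. FADS1 and FADS2 share 490 exonic bases on opposite strands, and FADS2 shares 49 with FEN1 on its own strand. ELOVL5, an elongase of polyunsaturated fatty acids, had 2512, 2006 and 4340 counts, and LPIN1, a phosphatidate phosphatase on the way to triglyceride, had 986, 752 and 1664. Both were about as far apart between the knockdown libraries, 1.97-fold and 2.02-fold.

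**Figure D3:**
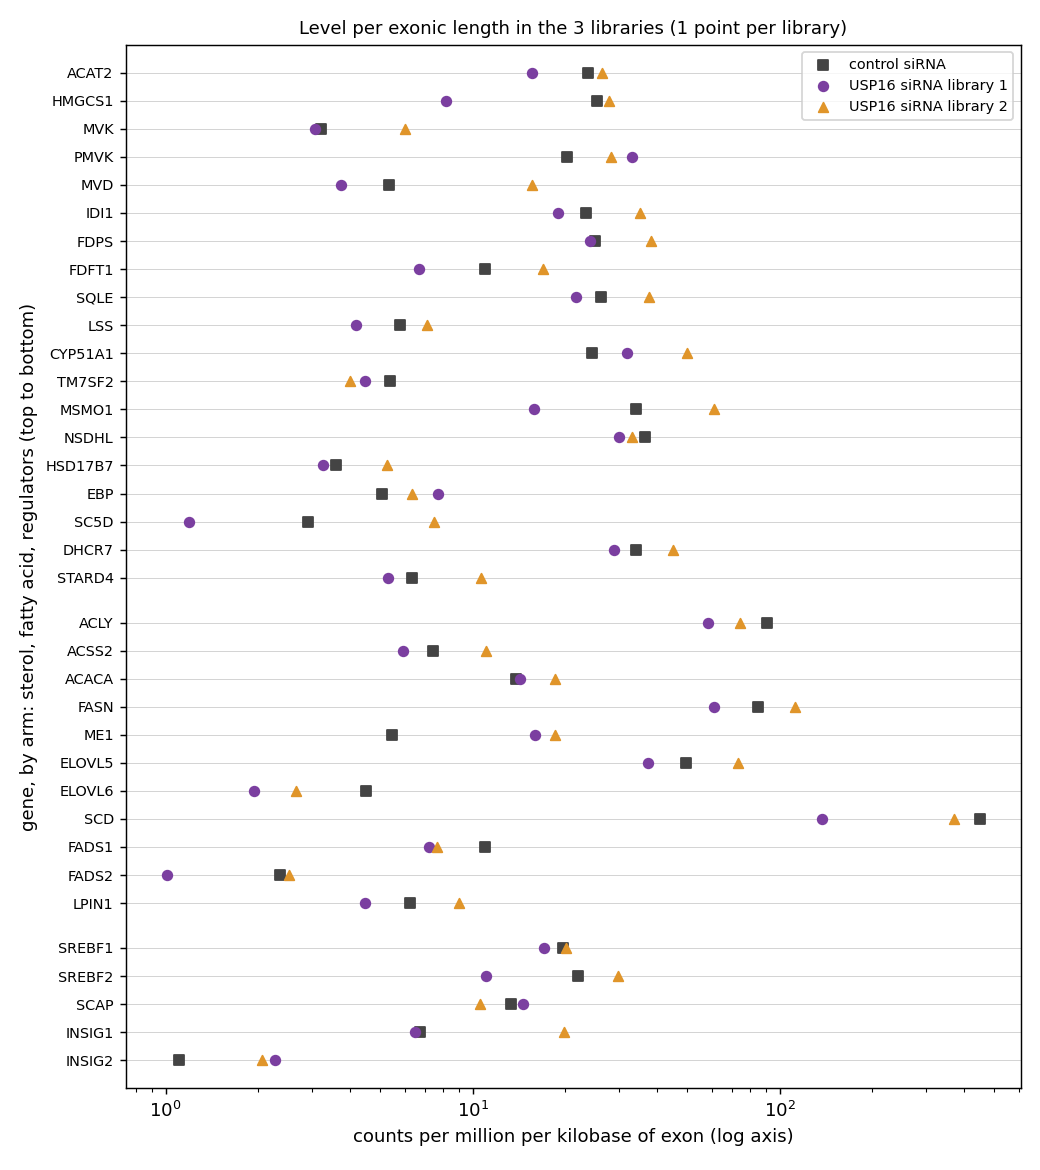
Level of each gene (y axis, grouped by arm) in the control and the 2 USP16 siRNA libraries as CPM per kilobase of exon (x axis, log scale), 1 point per library. SCD is highest at 448.9, 137.9 and 370.5 in the control, library 1 and library 2, and INSIG2 is lowest in the control at 1.10.

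Of the regulators, SREBF2 and INSIG1 differed most between the knockdown libraries. SREBF2, which encodes SREBP-2 (chromosome 22, positions 41833079 to 41907308), had 2211 counts in the control, 1183 in library 1 and 3494 in library 2. It was 1.99-fold lower than the control in library 1 (1.85 to 2.14) and 1.35-fold higher in library 2 (1.28 to 1.43), a 2.69-fold gap between them. SREBF1, which encodes SREBP-1, differed less, with 2107, 1942 and 2516 counts and a gap of 1.18-fold (1.11 to 1.25). SREBF1 shares 556 exonic bases with RAI1 on the opposite strand. SCAP, the escort protein, had 1138, 1333 and 1058 counts and was lower in library 2 than in library 1 (ratio 0.723, 0.667 to 0.785), the lowest such ratio of the 35 genes.

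The 2 INSIG genes had unlike patterns. INSIG1 (chromosome 7, positions 155297776 to 155310235) had 327, 336 and 1127 counts, so library 1 was level with the control (ratio 0.965, 0.826 to 1.13) and library 2 was 2.95-fold above it (2.61 to 3.35). INSIG2 had 58, 127 and 127 counts, 2.06-fold above the control in library 1 (1.496 to 2.86) and 1.87-fold in library 2 (1.36 to 2.60). Only INSIG1 separated the knockdown libraries, by 3.06-fold (2.70 to 3.46), and at 58 to 127 counts the values of INSIG2 are the least precise of the 35.

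Per kilobase of exon the control library ranked SCD first at 448.9 CPM per kilobase, then ACLY at 90.8, FASN at 85.3 and ELOVL5 at 49.5. NSDHL (36.4), MSMO1 (34.2) and DHCR7 (33.9) led the sterol arm. In library 2 MSMO1 (61.0) and CYP51A1 (49.98) led it, and in library 1 PMVK (33.0) and CYP51A1 (31.7). The lengths come from all annotated exons, so levels of genes with long unused exons are understated. The summed level of the sterol arm was 1200 CPM in the control, 942 in library 1 and 1754 in library 2, and the share of all counts in the 35 genes was 0.569%, 0.353% and 0.680%.

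Tested as 2 knockdown libraries against the control, no member passed the 0.05 threshold for the adjusted p in edgeR, over 17287 genes, where 0% of all genes were called higher and 0.0174% lower. The fit had 1 residual degree of freedom. At an unadjusted p under 0.05, 1 of the 35 passed, ME1, against 4.88% of all genes, and DESeq2 also called 0 members, with 1 at an unadjusted p under 0.05. ME1 had a fitted log2 change of 1.66 (edgeR, adjusted p = 0.769) and was higher in 2 of 2 libraries. ELOVL6, lower in 2 of 2, had a fitted change of -0.96 (edgeR, adjusted p = 0.999). The test takes its error from the spread between the knockdown libraries, moderated across all genes tested. The spread of a gene therefore does not alone set its p-value. For 25 of the 35 members the SD between the knockdown libraries was larger than the mean change, which was not counted over all genes. HMGCS1 had a mean of -0.74 ± 1.25 (SD, n = 2), MVD 0.52 ± 1.45 and SC5D 0.04 ± 1.86. FADS1, at -0.57 ± 0.06, also did not pass (edgeR, adjusted p = 0.999). USP16 itself did not pass (edgeR, adjusted p = 0.561), and did so when low-count genes were kept (edgeR, adjusted p = 0.0188).

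Genes that surround the pathway, in 4 lists, were counted in the same way. A level below the control in library 1 was not particular to the synthesis genes. It was seen in 11 of 12 genes for SREBP processing and turnover (91.7%) and in 14 of 18 for fatty acid activation and assembly (77.8%). The counts were 5 of 10 (50%) for LXR and sterol transport and 6 of 14 (42.9%) for isoprenoid and accessory genes. The share over all genes was 49.8%. Of the 12 genes for SREBP processing and turnover, 2 (16.7%) were at least 1.5-fold higher in library 2 than in library 1. As far below was 1 (8.33%), and the shares over all genes were 18% higher and 18.5% lower. ERLIN1, part of a sterol-dependent degradation complex, was one of the 2, with 1650, 721 and 1952 counts, whereas its partner ERLIN2 had 350, 635 and 766. The list's median difference between the knockdown libraries was 0.05.

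Genes of LXR signalling, sterol efflux and sterol transport had a median difference of -0.02 between the knockdown libraries. Of these 10, 2 (20%) were at least 1.5-fold higher in library 2 and 1 (10%) lower, against 18% and 18.5% of all genes. ABCA1, the sterol exporter, had 1644, 1129 and 1181 counts, below the control in both, and MYLIP, a ligase induced by LXR, had 134, 181 and 282. The 14 isoprenoid and accessory genes had a median difference of -0.01, with 1 (7.14%) higher and 0 lower, against the same 18% and 18.5%. CYB5R3, the cytochrome b5 reductase that feeds electrons to desaturases, had 497, 894 and 1043 counts.

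The list of fatty acid activation, elongation and glycerolipid assembly held 18 genes, with a median difference of 0.14. Of these, 3 (16.7%) were at least 1.5-fold higher in library 2 than in library 1 and 2 (11.1%) lower. Over all genes the shares were 18% and 18.5%. HACD3, a dehydratase of the elongation cycle, had 3092, 1191 and 2259 counts, and FADS3, a relative of FADS1 and FADS2, had 203, 158 and 82. Against the control in library 1, 1 (8.33%), 3 (30%), 0 and 7 (38.9%) genes of the 4 lists, in the order above, lay 1.5-fold or more lower. The share was 14.6% over all genes and 31.4% over the 35 members. None of the genes in the 4 lists was called at an adjusted p of 0.05 (edgeR), where 0% of all genes were called higher and 0.0174% lower. At an unadjusted p under 0.05 there was 1, against 4.88% of all genes.

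**Figure D4:**
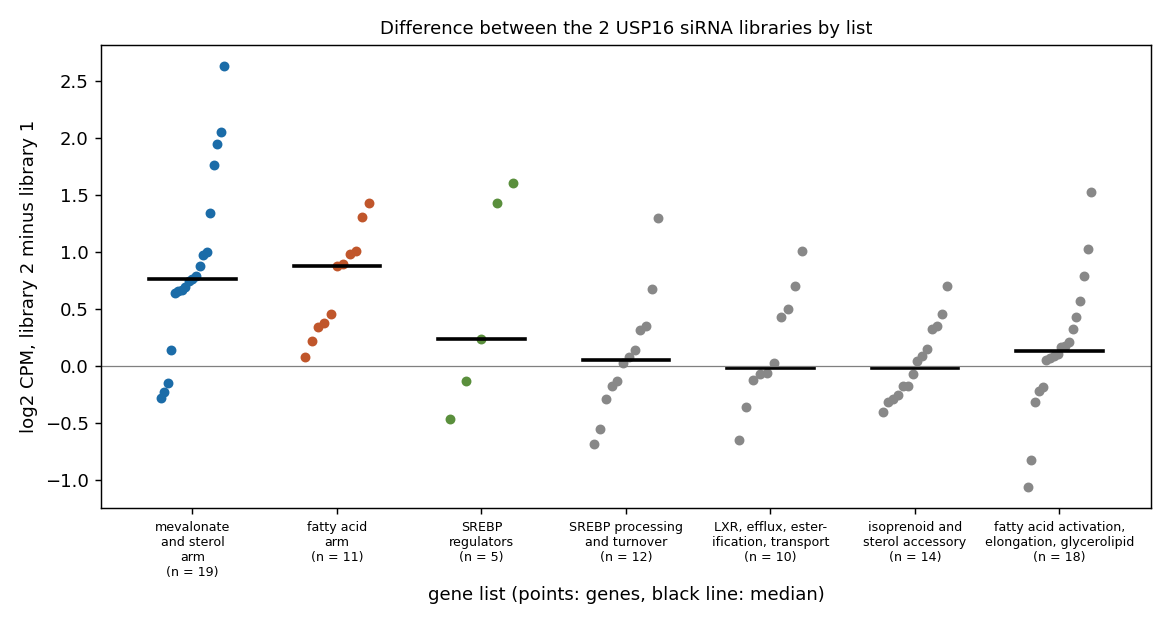
Log2 difference between USP16 siRNA library 2 and library 1 (y axis) for each gene (points) of the 3 synthesis groups and of 4 lists of surrounding genes (x axis), with list medians as black lines. Medians are 0.76, 0.88 and 0.24 for the synthesis groups and 0.05, -0.02, -0.01 and 0.14 for the other lists.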

How the data were processed

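The members and gene lists were chosen with earlier results of these data known. The authors deposited raw counts, whole numbers for each gene, for 3 libraries. StringTie 1.3.0, HISAT2 2.0.4 and the build hg38 appear in the submitters' processing notes, with no role stated. How reads were counted, and whether by strand, is not given in the sources used here. The count column of knockdown library 2 has the number 6 in its header, and its label was followed. The knockdown libraries differed beyond sampling noise (chi-square 62.5 per degree of freedom over 16523 genes).

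The low-count filter filterByExpr of edgeR 4.0.16 (R 4.3.3) left 17287 genes, which were scaled by TMM (factors 0.952, 1.02 and 1.03) and tested with the quasi-likelihood test, Benjamini-Hochberg adjusted. The test was checked on simulated data with the same relative spread set for all genes. That does not show how it behaves on these libraries. Log2 differences are of log2 CPM with a prior count of 2. Ratios are of scaled counts, with exact binomial 95% intervals. Nothing in the labels says that the knockdown libraries come from separate cultures. The p-values therefore take their error only from the spread of these libraries, moderated across genes, and that spread may be technical. Of the gene identifiers, 50111 matched GENCODE 29, which gave positions, exonic lengths and overlaps. Of the members, 16 share exonic bases with another gene, 4 of them on the same strand. Named genes were all 35 members, USP16, markers and up to 2 genes per direction of each surrounding list by mean change. Alternatives were other filters, scalings, prior counts, a 2-fold limit, DESeq2 1.42.0 and leaving out each knockdown library.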

Additional observations from a re-analysis of the deposited data

How the results depend on the processing

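Each result was set beside its alternatives. Of the counts of members, group medians and USP16, 107 values stayed within 1.5 times or the spread between the knockdown libraries. Another 6 counts did not, and USP16 crossed the test threshold once. The spread between the knockdown libraries is the difference described above, so staying within it is a wide limit. The 107 also include counts of 0 members called by edgeR. Not all of the 107 kept their direction. The median of the SREBP regulators in library 1 went from -0.05 to 0.04 with library totals. Library totals in place of TMM factors raise the median of all genes by 0.10 in library 1 and 0.11 in library 2. With them, 17 members were at least 1.5-fold higher in library 2 than in the control, and the share over all genes was not counted. A 2-fold limit necessarily gave fewer members: 2 higher and 6 lower in library 1 (7.05% and 5.55% of all genes), 5 higher and 0 lower in library 2 (9.94% and 8.97%), and 11 higher in library 2 than in library 1. With no filter on low counts, USP16 passed (log2 change -2.03, edgeR adjusted p = 0.0188), and the cause was not tested. Over its alternatives the adjusted p of ME1 ranged from 0.222 with no filter to 0.983 with a minimum mean of 100 counts. Leaving out a knockdown library leaves no residual degrees of freedom and so gives values without a test. No paired analysis was possible because there is only 1 control library. With 1 control library, its own variation is part of every change against it, and depth limits INSIG2 most.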
